A study of Danio rerio with 36 samples.

Results

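LEN, the lepb-linked enhancer, is a regulatory element of the zebrafish named for the leptin gene lepb. The libraries described here are the whole-fin RNA-seq libraries of batch 3 in which fins labelled LEN deletion were set against wild-type fins, 4 of the 36 samples of the series and 4 of its 18 RNA libraries. They were chosen by their labels alone. The groups were LEN deletion at 0 days post amputation (dpa, uninjured), LEN deletion at 2 dpa, wild type at 0 dpa and wild type at 2 dpa, with 1 library each. The labels give the deletion only in the sample titles, with no allele, no zygosity and no statement of how many deletion lines were used, and the control libraries are titled only as whole fin, which is called wild type here. Per the labels' protocols, whole-fin fish were of the Ekkwill (EK) strain, 4 to 12 months old, or 3 to 12 months in the account of the RNA collection, and a library pooled the caudal fin clips of 15 fish, so variation between fish was averaged within a library and cannot be seen. The protocols name 0, 1 and 4 dpa as collection times and do not mention 2 dpa, which comes from the sample labels. The question the comparison addresses is what the loss of this enhancer does to gene expression in the uninjured and in the regenerating fin.

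As background, the zebrafish caudal fin regrows lost rays, with their bone, skin and connective tissue, from a blastema, a mass of proliferating cells under the wound epidermis. Enhancers are stretches of DNA that raise transcription of a gene from a distance, and some become active only after injury. Leptin is a secreted hormone of the cytokine class. It binds the leptin receptor lepr, which signals through the Jak2 kinases and the transcription factor Stat3, and Socs3 proteins dampen that signal. In zebrafish, lepb is switched on in regenerating fins and hearts. No sequence of the enhancer was in the sources used here, so none is shown.

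Total gene counts lay between 25367791 and 28679133 per library. With 1 library per genotype and time, a difference at a single time could not be tested within these 4 libraries. It is given as a log2 ratio of scaled counts with a prior count of 2, and is called past 2-fold where the higher of the pair of libraries reached 50 counts. LEN deletion fins were past 2-fold from wild-type fins for 241 of 10477 measured genes at 0 dpa (2.3%; 180 higher, 1.72%, and 61 lower, 0.582%). At 2 dpa this held for 84 of 10372 genes (0.81%; 34 higher, 0.328%, and 50 lower, 0.482%). The 8 pairs of replicate wild-type whole fins in the other batches differed past 2-fold in 0.255 to 1.68% of genes. The genotype pair at 0 dpa lay above the range of these replicate pairs of whole fins and the pair at 2 dpa within it. The only replicate pairs of batch 3 were of fibroblasts, another kind of sample, and differed past 2-fold in 6.13% of genes at 0 dpa and 0.575% at 4 dpa. The median absolute log2 ratio over genes was 0.174 at 0 dpa and 0.1 at 2 dpa between the genotypes, against 0.0873 to 0.187 between replicates. The share of reads on no annotated gene was 39.0% in LEN deletion fins and 36.6% in wild-type fins at 0 dpa, both above the 34% that was the highest among whole fins of batches 1 and 2. At 2 dpa it was 32.6% in LEN deletion fins and 33.2% in wild-type fins. Its part in the results at 0 dpa was not tested.

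**Figure D1:**
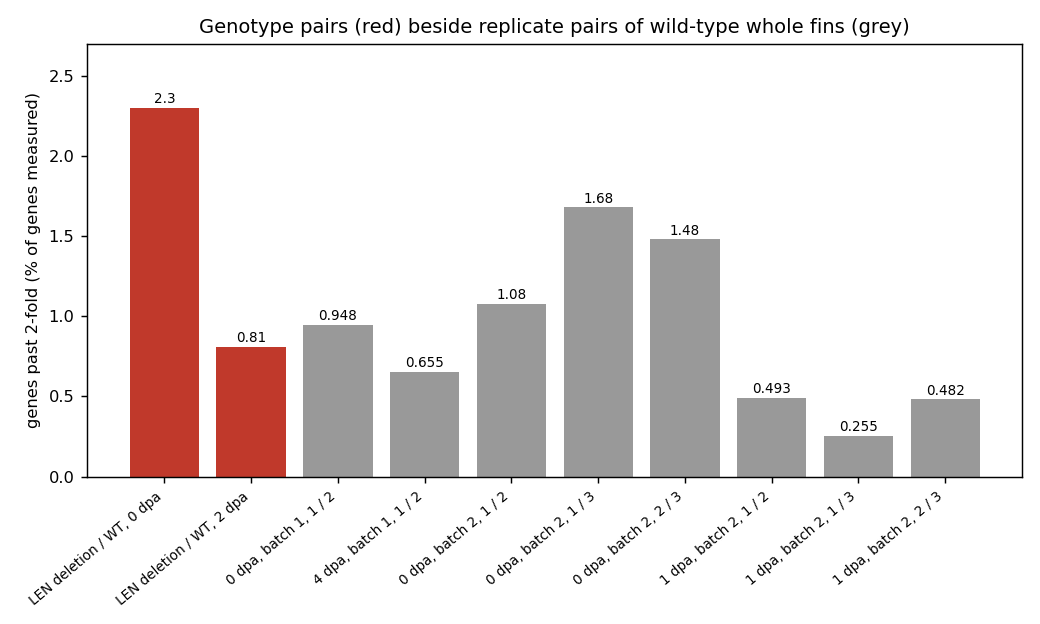
Genes past 2-fold, as a percentage of genes measured, for LEN deletion against wild type at 0 and 2 dpa (red bars) and for the 8 pairs of replicate wild-type whole fins of batches 1 and 2 (grey bars, named by their labelled time, batch and replicate numbers). The red bar at 0 dpa, at 2.3%, is above every grey bar, and the red bar at 2 dpa, at 0.81%, is within the range of the grey bars.

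The gene for which the enhancer is named was nearly silent in LEN deletion fins after amputation. At 0 dpa, lepb had 1 count in the LEN deletion library and 1 count in the wild-type library. At 2 dpa it had 8 counts in the LEN deletion library and 3698 counts in the wild-type library. Scaled to library size (counts per 1e6 counts, CPM) this was 0.286 in LEN deletion fins (exact Poisson 95% interval 0.123 to 0.563) and 129 in wild-type fins (124 to 133), so lepb was 450-fold higher in wild type (exact conditional 95% interval 228 to 1040, counting error only). Both uninjured libraries were thus at the lower limit of detection, and at 2 dpa the wild-type library alone was high. The ratio of 2 over 0 dpa was 7.71 in LEN deletion fins (1.03 to 342) and 3170 in wild-type fins (569 to 125000). The gene did not pass the expression filter of the 4-library fit, being high in a single library. With a spread taken from the replicated wild-type whole fins of the other batches, and on the assumption that the lone libraries vary like those, lepb fell by 8.79 on the log2 scale at 2 dpa (SE 0.467, edgeR adjusted p = 3.8e-05). Over the alternatives tried this adjusted p ranged between 1.79e-07 and 0.0016. The genotype-by-time difference had a log2 value of -8.66 with an SE of 3.79 (edgeR adjusted p = 0.694). In other wild-type whole fins lepb had 8 and 4 counts at 0 dpa and 1345 and 1005 counts at 4 dpa in batch 1. In batch 2 it had 1071 to 1409 counts in the libraries labelled 0 dpa and 0 to 1 counts in those labelled 1 dpa, and the names under which batch 2 was deposited give these times in the opposite order.

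Other members of the leptin pathway did not pass the test over both times, with 1 exception. Transcripts of the receptor lepr had 731 and 890 counts in LEN deletion fins at 0 and 2 dpa, and 589 and 1057 counts in wild-type fins. Its log2 difference over both times was -0.02 (SE 0.13, edgeR adjusted p = 0.991). Among the signalling components, stat3 had a log2 difference of 0.29 (SE 0.111, adjusted p = 0.525), and jak2a, jak2b and socs3b had adjusted p values of 0.913, 0.949 and 0.871 in the same edgeR fit. At 0 and 2 dpa stat5a had 193 and 31 counts in LEN deletion fins and 58 and 57 in wild-type fins (log2 ratios 1.58 and -0.80). With the spread of the replicated fins edgeR called stat5a at 0 dpa (adjusted p = 0.0306). On a common scale it had 6.2 CPM in LEN deletion fins, 2.07 CPM in wild-type fins of batch 3 and 6.72 and 7.67 CPM in those of batch 1. The second leptin gene, lepa, had 0 and 23 counts in LEN deletion fins and 0 and 4 counts in wild-type fins at 0 and 2 dpa, too few to be called. Of 24 tested genes of the pathway list 7 had an unadjusted p under 0.05 over both times, against 7.62% of all tested genes. Over both times edgeR called 1 of them (0.404% of all). It was higher: socs1b, a feedback inhibitor of Jak kinases that is described with the interferon genes. In the gene order of the GRCz12tu annotation, 10 genes on each side of lepb were looked up. The measured protein-coding neighbours cbll1, bik, mcat, rap1b, impdh1b and snd1 had log2 differences between -0.25 and 0.24, with edgeR adjusted p values of 0.725 to 0.982, and none was called. On one side the nearest measured neighbours were impdh1b, with 2430 and 7264 counts in LEN deletion fins and 2176 and 8728 in wild-type fins at 0 and 2 dpa, and rap1b, with 6484 and 7424 in LEN deletion fins and 5899 and 7250 in wild-type fins. The neighbours slc26a3.1, slc26a3.2 and pax4 had at most 3 counts in any of the 4 libraries. Other neighbours, prrt4b next to lepb among them, were not matched to a counted gene.

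**Figure D2:**
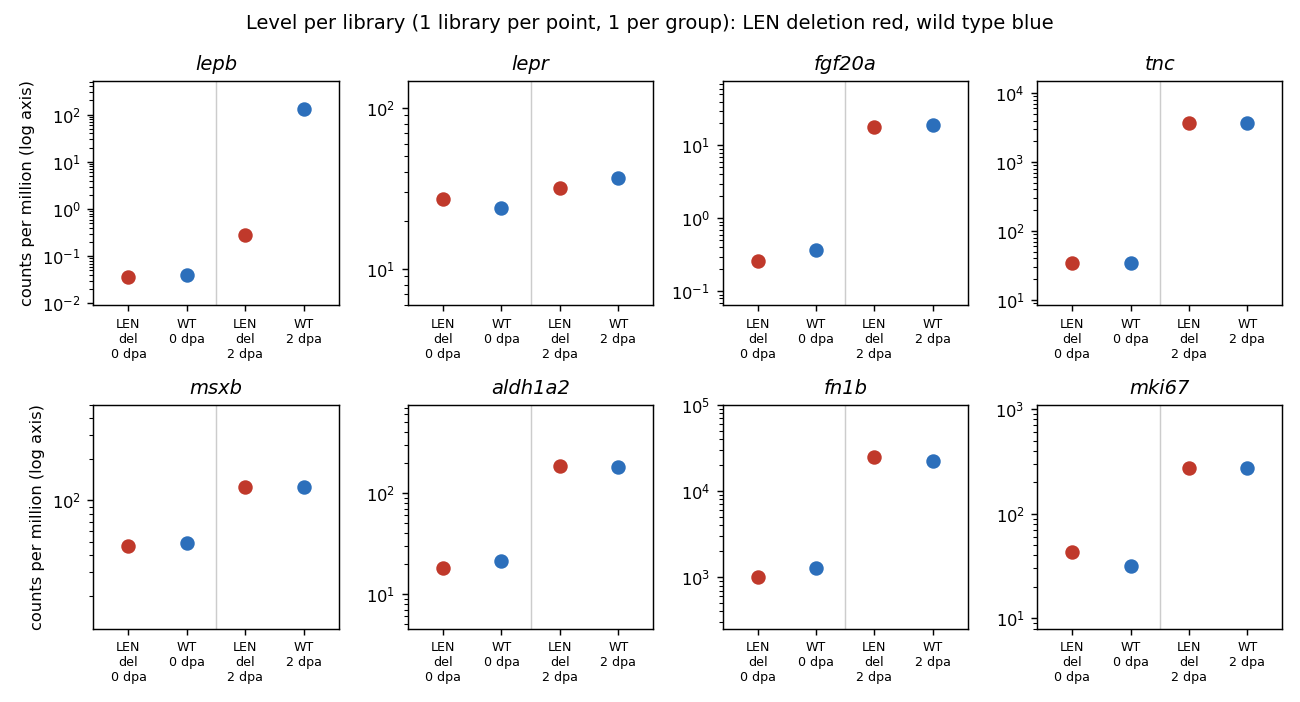
Levels of lepb, its receptor gene lepr and 6 genes of the regenerating or dividing fin, in CPM on a log axis; each point is 1 library, LEN deletion in red and wild type in blue, 0 dpa left and 2 dpa right in each panel. At 2 dpa lepb is at 0.286 in LEN deletion fins and 129 in wild-type fins, while the red and blue points of the other genes lie close together.

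Several genes that mark the blastema were at close levels in both genotypes at 2 dpa, and none passed the test over both times. The matrix gene tnc (tenascin C) had 104914 counts in LEN deletion fins and 107938 in wild-type fins. The growth factor gene fgf20a, which is needed to start fin regeneration, had 18.1 CPM in LEN deletion fins and 19.1 CPM in wild-type fins. Levels of aldh1a2, which makes retinoic acid, were 187 CPM in LEN deletion fins and 182 CPM in wild-type fins, and those of the homeobox gene msxb were 125 CPM in both. The proliferation marker mki67 had 275 CPM in LEN deletion fins and 271 CPM in wild-type fins, and the hedgehog ligand gene shha 12.3 CPM in LEN deletion fins and 13.2 CPM in wild-type fins. The pair and1 and and2 encode actinodins, fibre proteins of the growing fin fold. At 2 dpa and1 had 23651 counts in LEN deletion fins and 25759 in wild-type fins, while and2 had 3280 in LEN deletion fins and 5405 in wild-type fins, a log2 difference over both times of -0.67 (SE 0.135) that missed the threshold (edgeR adjusted p = 0.0742). None of the 29 tested blastema genes was called by edgeR and 4 had an unadjusted p under 0.05, against 7.62% of all tested genes. The 1 gene of this list past 2-fold lower at 2 dpa was lepb itself. The same count of 0 calls was found for 50 cell cycle genes (1 at an unadjusted p under 0.05), 38 extracellular matrix genes (2), 22 osteoblast genes (2) and 23 fin fibroblast genes (3), and DESeq2 called none of these lists' genes either. Their median log2 differences over both times lay between -0.07 and 0.03, against -0.01 over all genes. The same held for the Fgf and Wnt list (0 of 45 called, 1 unadjusted), the hedgehog, Bmp and Tgfb list (0 of 42, 1 unadjusted), the retinoic acid list (0 of 24, 3 unadjusted) and the patterning and joint list (0 of 24, 2 unadjusted). Across 10820 genes the log2 ratios of 2 over 0 dpa in LEN deletion fins and in wild-type fins had a Pearson coefficient of 0.94 and a Spearman coefficient of 0.924, a description of 4 libraries over genes, which are not independent replicates. From 0 to 2 dpa, 1419 genes were past 2-fold higher and 1729 lower in LEN deletion fins, against 1333 higher and 1555 lower in wild-type fins.

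Genes that differed by genotype at both times were tested with time as a block, in edgeR's quasi-likelihood test on the 4 libraries, with Benjamini-Hochberg adjustment over all tested genes. Only 1 residual degree of freedom was left, which is the change of the genotype difference with time. The test called 48 of 11873 genes (0.404%), of which 26 were higher (0.219%) and 22 lower (0.185%) in LEN deletion fins, and 905 genes had an unadjusted p under 0.05. All 48 had the same sign at both times, which this test favours, since its residual is small where both ratios are alike, and 14 were past 2-fold at both times. With the spread of the replicated wild-type fins in place of the single degree of freedom, edgeR called 20 of 12586 genes for the mean of both times (0.159%), 14 higher (0.111%) and 6 lower (0.0477%), and 10 of the 48 were among them. Scaling by library size alone left 7 of the 48 called.

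**Figure D3:**
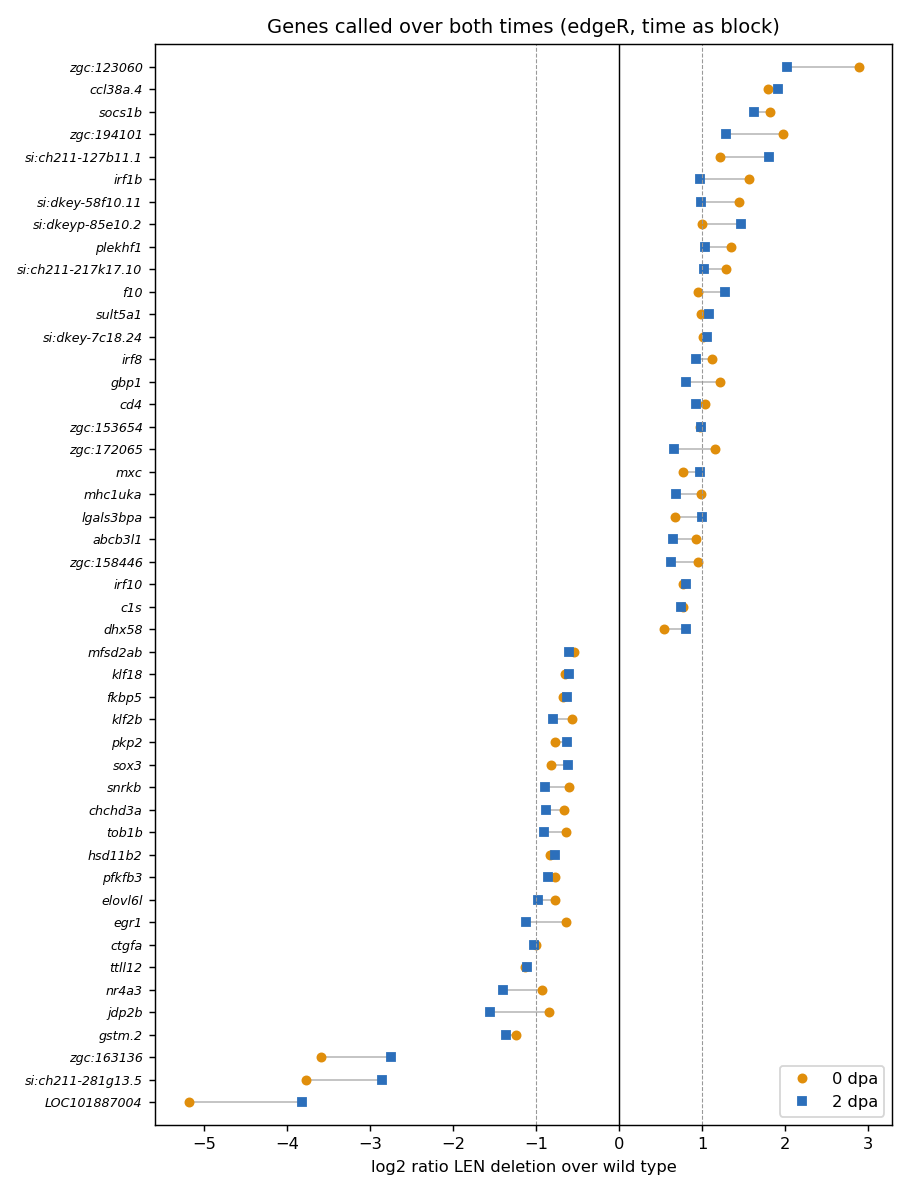
Genes called over both times (47 are drawn; edgeR, time as a block, adjusted p under 0.05), with the log2 ratio of LEN deletion over wild type at 0 dpa (orange circles) and at 2 dpa (blue squares); dashed lines mark 2-fold. The 26 genes on top are right of 0 at both times and the 21 below are left of 0 at both times.

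Genes of the interferon response and antigen presentation list were mostly higher in LEN deletion fins at both times. Of the 42 tested genes of interferon response and antigen presentation, 7 were called, all higher, and 27 had an unadjusted p under 0.05, against 0.404% and 7.62% of all tested genes. The median log2 difference of the list was 0.36, against -0.01 over all genes, and 41 of its 42 members were above 0. At 0 dpa 37 of 40 measured members were above 0 (median 0.38) and at 2 dpa 39 of 41 (median 0.39). The SD of this list's median between replicate libraries was 0.168. The transcription factor gene irf1b, itself an interferon target, had 299 and 116 CPM in LEN deletion fins at 0 and 2 dpa, against 101 and 58.6 CPM in wild-type fins. It rose by a log2 value of 1.28 (SE 0.149, edgeR adjusted p = 0.0171). The interferon regulatory factor gene irf8, needed for macrophages to form, had 24.6 and 56.5 CPM in LEN deletion fins and 11.2 and 29.5 CPM in wild-type fins, and rose by 1.02 (SE 0.121, adjusted p = 0.00459). Each deletion library was above the wild-type library of its time for both genes.

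The other called members of this list were gbp1 (1.00), a guanylate-binding protein, the antiviral GTPase gene mxc (0.87), the class I histocompatibility gene mhc1uka (0.84), the antigen peptide transporter gene abcb3l1 (0.80) and the RNA sensor gene dhx58 (0.68), with edgeR adjusted p values of 0.00914 to 0.0362. Another interferon regulatory factor gene, irf10, rose by 0.79 (adjusted p = 0.0362, and 0.265 with the spread of the replicated wild-type fins). Not every antiviral gene passed the test. The ubiquitin-like modifier isg15 had 80.3 and 37.7 CPM in LEN deletion fins and 55.4 and 26.3 CPM in wild-type fins at 0 and 2 dpa (log2 0.53, adjusted p = 0.0589), and rsad2 (viperin) a log2 difference of 0.73 (adjusted p = 0.109). The interferon signal transducers stat1a and stat2 had log2 differences of 0.28 and 0.04 (adjusted p = 0.461 and 0.972). Past 2-fold were 3 of 40 measured members at 0 dpa and 1 of 41 at 2 dpa, all higher. Over all measured genes 1.72% were past 2-fold higher at 0 dpa and 0.328% at 2 dpa. With the spread of the replicated wild-type fins, gbp1 and mhc1uka were called for the mean of both times (adjusted p = 0.00779 and 0.032), and the other 5 of the 7 were not (0.054 to 0.513). Common-scale comparisons of uninjured fins left out the batch 2 libraries labelled 0 dpa, whose deposited names give the times in the opposite order. On a common scale the LEN deletion library at 0 dpa was above the 3 uninjured wild-type libraries of batches 1 and 3 for 32 of the 40 measured members and below all 3 for 0. Over all 10477 genes it was above them for 2032 and below them for 2438. The wild-type library of batch 3 was in turn below the other 3 for 12 of the 40, irf1b, gbp1, mhc1uka and dhx58 among them, against 2259 of 10477 of all genes.

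The cytokine inhibitor socs1b had 186 and 116 counts in LEN deletion fins at 0 and 2 dpa, against 47 and 37 counts in wild-type fins. Both deletion libraries were above both wild-type libraries, and the log2 difference was 1.77 (SE 0.255, edgeR adjusted p = 0.0146, and 0.0235 with the replicated spread). Its paralogue socs1a had a log2 difference of 0.51 that was not called (adjusted p = 0.155). The chemokine gene ccl38a.4 rose by 1.86 (SE 0.172, adjusted p = 0.00149, and 0.449 with the replicated spread). It had 30.2 and 4.9 CPM in LEN deletion fins and 8.67 and 1.25 CPM in wild-type fins. But on a common scale the uninjured fins held 26.2 CPM with the deletion, 7.65 CPM in wild type of batch 3 and 20.5 and 48.2 CPM in wild type of batch 1. Counts of chemokine, histocompatibility and Mx genes are uncertain where near-identical copies share reads. The complement protease gene c1s rose by 0.76 (adjusted p = 0.0284, and 0.265 with the replicated spread), the only called gene among 16 of the complement and acute-phase list. On the common scale c1s had 30.2 CPM in LEN deletion fins at 0 dpa, 18 CPM in wild-type fins of batch 3 and 45 and 33 CPM in those of batch 1. Of the remaining higher genes with a name, plekhf1 rose by 1.2 (adjusted p = 0.00149), the coagulation factor gene f10 by 1.11 (adjusted p = 0.00739) and lgals3bpa by 0.83 (adjusted p = 0.0113). With the replicated spread edgeR called none of these for the mean of both times (adjusted p = 0.22, 0.61 and 0.558). ogfrl2, with 388 and 289 CPM in LEN deletion fins and 119 and 142 CPM in wild-type fins, was past 2-fold at both times and missed the threshold (log2 1.37, adjusted p = 0.0589).

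Markers of lymphocytes and of macrophages and granulocytes lay mostly above 0, and 1 of them passed the test. Of 28 tested lymphocyte genes 27 were above 0 (median log2 0.47), 13 had an unadjusted p under 0.05 and 1 was called by edgeR. Of all 11873 tested genes 5499 were above 0 (median -0.01), 7.62% had an unadjusted p under 0.05 and 0.404% were called. The called lymphocyte gene was the T helper cell co-receptor gene cd4 (log2 0.99, SE 0.174, edgeR adjusted p = 0.0458). It had 16.6 and 6.18 CPM in LEN deletion fins and 8.11 and 3.23 CPM in wild-type fins. The T cell kinase gene lck had 21.3 and 6.04 CPM in LEN deletion fins and 11.1 and 5.22 CPM in wild-type fins (adjusted p = 0.404). With the replicated spread edgeR did not call cd4 for the mean of both times (adjusted p = 0.478). The summed level of the lymphocyte list was 944 and 335 CPM in LEN deletion fins at 0 and 2 dpa, and 816 and 306 CPM in wild-type fins, with pax5 and rag1 near 0 counts in all 4 libraries. Of 47 macrophage and granulocyte genes 33 were above 0 (median 0.30), and their summed level was 9830 and 5710 CPM in LEN deletion fins, against 8110 and 5400 CPM in wild-type fins. edgeR called none of them, 20 had an unadjusted p under 0.05, against 7.62% of all tested genes, and DESeq2 called 3 (65 over all genes). The macrophage genes mpeg1.1 and csf1ra had adjusted p values of 0.676 and 0.632. At 0 dpa the lymphocyte median was 0.67 and the macrophage median 0.47, and at 2 dpa 0.22 and 0.15, whereas the interferon median was 0.38 and 0.39. Between replicate libraries the SD of the list median was 0.23 for lymphocyte, 0.353 for macrophage and granulocyte and 0.168 for interferon genes. Among the uninjured libraries on a common scale, the wild-type library of batch 3 was below the other 3 for 17 of 23 lymphocyte genes. The same held for 16 of 43 macrophage and granulocyte genes, against 2259 of 10477 of all genes. The LEN deletion library was above the 3 wild-type libraries for 11 of the lymphocyte and 21 of the macrophage and granulocyte genes. Over all genes it was above them for 2032 of 10477. In a bulk library, more cells of a type and more RNA per cell cannot be told apart, and the part of these cell markers in the interferon result was not tested.

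Of the immediate-early and stress genes, those that passed the test were lower in LEN deletion fins. Of 69 tested stress and heat shock genes 13 were above 0 (median log2 -0.18); edgeR called 4, all lower, and 19 had an unadjusted p under 0.05, against 0.404% and 7.62% of all tested genes. The called members were nr4a3 (-1.17, SE 0.187, adjusted p = 0.026), an orphan nuclear receptor, egr1 (-0.88, SE 0.129, adjusted p = 0.026), a zinc finger gene induced by growth factors, klf2b (-0.68, adjusted p = 0.0235) and the glucocorticoid-induced chaperone gene fkbp5 (-0.65, adjusted p = 0.0202). egr1 had 81 and 33.9 CPM in LEN deletion fins at 0 and 2 dpa, against 127 and 73.6 CPM in wild-type fins. Each deletion library was below the wild-type library of its time. With the replicated spread none of the 4 was called for the mean of both times (adjusted p = 0.333 to 0.917), and klf2b had 74.5 CPM in LEN deletion fins and 112 CPM in wild-type fins of batch 3 at 0 dpa, beside 287 and 315 CPM in wild-type fins of batch 1 on the same scale. The AP-1 related gene jdp2b, which is outside the lists, fell by 1.22 (adjusted p = 0.0458, and 0.652 with the replicated spread). On the common scale jdp2b had 11.5 CPM in LEN deletion fins and 21.2 CPM in wild-type fins of batch 3 at 0 dpa. Wild-type fins of batch 1 had 124 and 209 CPM.

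Several genes of this kind differed by more at both times and missed the threshold. nr4a1 had 14.1 and 4.18 CPM in LEN deletion fins and 37.4 and 28.3 CPM in wild-type fins at 0 and 2 dpa, a log2 ratio of -1.40 at 0 dpa and -2.74 at 2 dpa (adjusted p = 0.478). The ratios of fosb were -1.12 and -2.90 (adjusted p = 0.789), those of klf4 -1.18 and -2.42 (adjusted p = 0.421) and those of the kinase gene sik1 -1.30 and -2.10 (adjusted p = 0.111). These 4 genes make up 4 of the 10 genes past 2-fold lower at both times. DESeq2's Wald test, which takes no account of the uncertainty left by 1 degree of freedom, called nr4a1, klf4 and sik1. In replicated wild-type fins these genes varied: with that spread the SE of their difference at 0 dpa was between 1.03 and 1.34 on the log2 scale, and none was called.

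Wound and early injury genes shared some of these members. edgeR called 2 of 38 tested genes, both lower and egr1 among them, and 12 had an unadjusted p under 0.05. Over all tested genes these shares were 0.404% and 7.62%. Past 2-fold at 2 dpa were 6 of 37 measured wound genes, all lower, against 0.482% of all measured genes that were past 2-fold lower. Among the wound genes was fosl1a, with 262 counts in LEN deletion fins and 619 in wild-type fins. The collagenase gene mmp9 (log2 -0.24, adjusted p = 0.616) and the inflammatory cytokine gene il1b (0.12, adjusted p = 0.97) were not called. ctgfa (ccn2a), a matricellular growth factor, had 80.4 and 19.5 CPM in LEN deletion fins and 161 and 39.9 CPM in wild-type fins, and fell by 1.02 (SE 0.102, adjusted p = 0.00173, and 0.409 with the replicated spread). The glutathione transferase gene gstm.2 fell by 1.31 (SE 0.139, adjusted p = 0.00237), with 11.6 and 7.75 CPM in LEN deletion fins and 27.6 and 20.1 CPM in wild-type fins. It was also called at each time when the spread came from the replicated fins (adjusted p = 0.00526 at 0 dpa and 0.00791 at 2 dpa). Also lower were the tubulin ligase-like gene ttll12 (-1.14), the fatty acid elongase gene elovl6l (-0.86), the corticosteroid-inactivating enzyme gene hsd11b2 (-0.81), the glycolytic regulator pfkfb3 (-0.81), the only call among 47 glycolysis and hypoxia genes, and sox3 (-0.73), the only call among 21 gonad and pituitary genes, with adjusted p values of 0.00914 to 0.0209. With the replicated spread edgeR called ttll12 for the mean of both times (adjusted p = 0.0177) and not the rest (0.134 to 0.699). On a common scale uninjured fins held 29.2 CPM of pfkfb3 with the deletion, 50.7 CPM in wild type of batch 3 and 18.3 and 13.4 CPM in batch 1. For hsd11b2 the deletion library was also within the wild-type range, and for ttll12, elovl6l and sox3 below it.

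The largest called differences belonged to genes known by identifiers, named here after their values were seen. LOC101887004 had 7 and 9 counts in LEN deletion fins at 0 and 2 dpa, against 298 and 158 counts in wild-type fins (log2 -4.83, SE 0.361, edgeR adjusted p = 0.00149). si:ch211-281g13.5 and zgc:163136, now named herc56.4 and herc56.3 and next to each other in the gene order, had log2 differences of -3.69 and -3.43 (adjusted p = 0.00149 each). The first had 16 and 6 counts in LEN deletion fins and 223 and 58 in wild-type fins, and the second 21 and 10 in LEN deletion fins and 252 and 81 in wild-type fins. With the replicated spread edgeR called neither of these neighbours for the mean of both times (adjusted p = 0.308 and 0.319). LOC101887004 was called in that fit (adjusted p = 0.00442). The largest called increase was that of zgc:123060, with 531 and 325 counts in LEN deletion fins and 64 and 81 counts in wild-type fins (log2 2.48, SE 0.233, adjusted p = 0.00354). si:dkey-13e3.1 differed more, with 1325 and 237 counts in LEN deletion fins and 72 and 43 counts in wild-type fins. It missed the threshold with time as a block (adjusted p = 0.209) and was called at both times with the replicated spread (adjusted p = 5.1e-05 at 0 dpa and 0.00791 at 2 dpa). For these 5 genes the LEN deletion library lay outside the uninjured wild-type libraries of batches 1 and 3 on a common scale. LOC101887004 had 0.225 CPM in LEN deletion fins, 10.7 CPM in wild-type fins of batch 3 and 15.5 and 22.9 CPM in those of batch 1. si:dkey-13e3.1 had 42.6 CPM in LEN deletion fins, 2.57 CPM in wild-type fins of batch 3 and 2.38 and 2.09 CPM in those of batch 1.

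Genes on the chromosome of lepb were a larger share of the called genes than of all genes. They were 5 of 47 placed genes called over both times (10.6%) and 3 of 19 placed genes past 2-fold at both times (15.8%), against 3.64% of the 9935 placed genes with at least 50 counts at both times. Their share was nearer to this among placed genes past 2-fold at 0 dpa (12 of 235, 5.11%) and at 2 dpa (5 of 80, 6.25%). The calls over both times were drawn from all tested genes, a wider set than this background. Genes past 2-fold at a single time were drawn from those measured at that time, also a wider set. The genes of this chromosome called over both times were chchd3a, pfkfb3, pkp2, si:ch211-127b11.1 (plxnb2a.2) and ttll12. They lay 82 to 344 genes from lepb in the gene order. Of the 10 genes on each side only cbll1, bik, mcat, rap1b, impdh1b and snd1 were tested over both times, and none was called. Past 2-fold at both times were si:ch211-127b11.1, ttll12 and si:dkey-13e3.1, the last 576 genes from lepb. si:ch211-127b11.1 was called at both times with the replicated spread as well (adjusted p = 0.0294 at 0 dpa and 0.00566 at 2 dpa), with 276 and 861 counts in LEN deletion fins and 107 and 253 in wild-type fins. The deletion and other differences between the fish of both genotypes cannot be told apart.

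Sorted by the single-time ratios, 10029 genes reached 50 counts at both times. Of these 20 were past 2-fold in the same direction at both (0.199%; 10 higher, 0.0997%, and 10 lower, 0.0997%), which is 8.3% of the genes past 2-fold at 0 dpa and 23.8% of those at 2 dpa. A further 105 (1.05%) were past 2-fold at 0 dpa only, 79 higher (0.788%) and 26 lower (0.259%), and 12 (0.12%) at 2 dpa only, 5 higher (0.0499%) and 7 lower (0.0698%). "Only" means that the other time was under 2-fold and the ratios differed by at least 1 on the log2 scale. In 3 genes (0.0299%) the direction was opposite. Another 43 genes past 2-fold at 0 dpa and 29 at 2 dpa had ratios too close to that at the other time to be put in either class, and 70 and 20 had under 50 counts at the other time, with lepb among the 20.

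**Figure D4:**
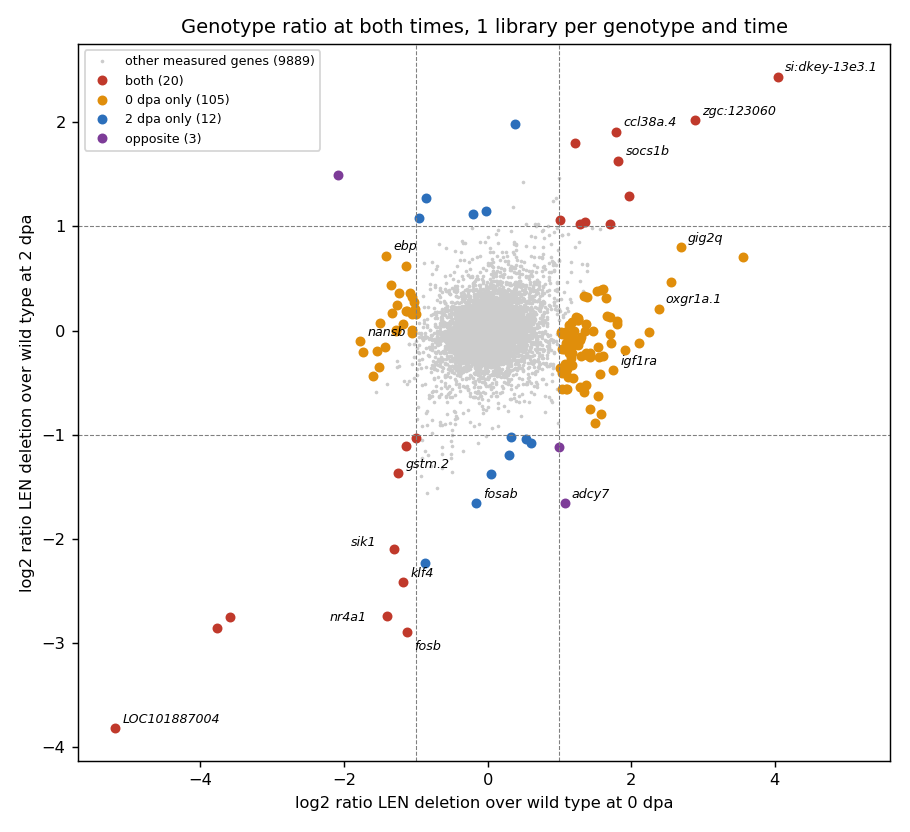
Log2 ratio of LEN deletion over wild type at 0 dpa (x axis) and at 2 dpa (y axis) for the 10029 genes that reached 50 counts at both times; coloured points are the genes past 2-fold at both times (20), at 0 dpa only (105), at 2 dpa only (12) or in opposite directions (3), and dashed lines mark 2-fold. Most points past 2-fold at 0 dpa lie near 0 on the y axis.

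At 0 dpa only, the most increased named genes included gig2q, an interferon-induced fish gene, with 6.42 CPM in LEN deletion fins and 0.932 CPM in wild-type fins (log2 ratio 2.69), the chemokine gene ccl19a.2 (2.55), the oxoglutarate receptor gene oxgr1a.1 (2.38), the lysosomal regulator tfe3a (2.25), sh3pxd2aa (2.11) and the heparan sulphate synthesis gene ext1b, with 129 counts in LEN deletion fins and 30 in wild-type fins. All 6 had ratios between -0.19 and 0.80 at 2 dpa. Also in the class, and chosen after their values were seen, were the receptor genes erbb2, with 54.3 CPM in LEN deletion fins and 18.7 CPM in wild-type fins, igf1ra, with 11.4 CPM in LEN deletion fins and 3.32 CPM in wild-type fins, and kita, with 32.4 CPM in LEN deletion fins and 15.4 CPM in wild-type fins. The most decreased were nansb (-1.78), which makes sialic acid, sh2d3cb (-1.73), the collagen cross-linking gene loxl2a (-1.54), the glutathione-degrading enzyme gene chac1 (-1.51), angptl7 (-1.50) and slc16a12b (-1.43). With the spread of the replicated wild-type fins, edgeR called 83 of 12586 genes at 0 dpa (0.659%; 63 higher, 0.501%, and 20 lower, 0.159%), and 41 of the 105 were among them.

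The uninjured wild-type library of batch 3 stood apart for this class. Beside the 2 uninjured wild-type libraries of batch 1, on a common scale, the LEN deletion library lay outside the 3 wild-type libraries for 29 of the 105 genes (27.6%), while the wild-type library of batch 3 lay outside the other 3 for 88 of them (83.8%). Over all genes these shares were 43.3% for LEN deletion and 57% for wild type. For the 20 genes past 2-fold at both times the order was the other way, with the LEN deletion library outside for 19 (95%) and the wild-type library for 6 (30%). For igf1ra the values were 9.86 CPM in LEN deletion fins and 2.93 CPM in wild-type fins of batch 3, and 30.5 and 26.9 CPM in batch 1. For tfe3a they were 9.28 CPM in LEN deletion fins, 1.93 CPM in wild-type fins, and 10.4 and 10.8 CPM in batch 1. Batch and library cannot be told apart here.

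Cholesterol synthesis genes lay on opposite sides of 0 at the 2 times. All 14 enzyme genes listed, from hmgcs1 to dhcr7, a list drawn after the values were seen and so given with no test of its own, were below 0 at 0 dpa (median log2 ratio -0.58, from -1.41 to -0.22), and 13 of them were above 0 at 2 dpa (median 0.38, from -0.06 to 0.79). Over all genes measured at both times, 24.6% were below 0 at 0 dpa and above 0 at 2 dpa. The sterol isomerase gene ebp had 121 CPM in LEN deletion fins and 320 CPM in wild-type fins at 0 dpa, and 12.5 CPM in LEN deletion fins and 7.55 CPM in wild-type fins at 2 dpa. The sterol reductase gene dhcr7 stood at 88.3 CPM in LEN deletion fins and 183 CPM in wild-type fins at 0 dpa. ebp and dhcr7 were called at 0 dpa with the replicated spread (edgeR adjusted p = 0.00526 and 0.00742), and ebp was called for the genotype-by-time difference (log2 2.16, SE 0.268, adjusted p = 0.029). On the common scale uninjured fins had 104 CPM of ebp with the deletion, 282 CPM in wild type of batch 3 and 4.28 and 2.79 CPM in wild type of batch 1. The wild-type library of batch 3 was above the other 3 libraries for all 14 genes, against 3654 of 10477 of all genes. The LEN deletion library was in turn above both batch 1 libraries for all 14. For hmgcs1 it had 735 CPM, against 24.6 and 16.9 CPM in batch 1, and for mvk 7.93 CPM, against 3.14 and 3.21 CPM. In the whole lipid metabolism list no gene of 56 was called over both times (6 at an unadjusted p under 0.05), and the median log2 ratio was -0.18 at 0 dpa and 0.12 at 2 dpa.

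The test of the genotype-by-time difference called 3 of 12586 genes (0.0238%), 1 with a positive value (0.00795%) and 2 with a negative one (0.0159%). These were ebp, igf1ra (log2 -2.14, SE 0.271, adjusted p = 0.029) and zgc:113278 (-2.41, SE 0.319, adjusted p = 0.0306), with 879 at an unadjusted p under 0.05. All 3 belong to the class past 2-fold at 0 dpa only. For the rest of that class this test did not show a difference between the times. The count was 0 without either 4 dpa library of batch 1, without replicate 1 or 2 of the libraries labelled 0 dpa in batch 2, or without replicate 1 of those labelled 1 dpa. It was 9 without either 0 dpa library of batch 1 and 21 without replicate 3 of those labelled 0 dpa in batch 2.

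Some gene groups lay almost wholly below 0 at 0 dpa. None of the 79 measured ribosomal protein genes was above 0 (median log2 ratio -0.13), and 4 of 73 genes of the mitochondrial respiratory chain were (median -0.26), against a median of -0.03 over all genes. Scaled by library size alone, these medians were -0.05 and -0.18, against 0.05 over all genes. Between replicate libraries the SD of the list median was 0.177 for ribosomal protein genes, larger than their median of -0.13. For respiratory chain genes it was 0.0729. The medians at 2 dpa were -0.04 and 0, and over both times edgeR called none of 80 and none of 75 (0 and 3 at an unadjusted p under 0.05). The summed ribosomal level was 82700 CPM in LEN deletion fins and 89800 CPM in wild-type fins at 0 dpa. All 79 were lower in the LEN deletion library than in the 3 uninjured wild-type libraries of batches 1 and 3, against 2438 of 10477 of all genes. Of the 73 respiratory chain genes 54 were lower there than in all 3 and 3 were higher. Epidermal genes had a median of -0.25 at 0 dpa and 0.06 at 2 dpa (0 of 42 called, 7 unadjusted). Of the circadian clock genes, per3 had 27.5 CPM in LEN deletion fins and 8.67 CPM in wild-type fins at 0 dpa (log2 ratio 1.66, called at 0 dpa with the replicated spread, adjusted p = 0.00583), clocka had a ratio of 1.13 (adjusted p = 0.0567) and rorcb of 1.47 (adjusted p = 0.0269), while aanat2, a melatonin synthesis enzyme gene, had a ratio of -1.12. Of 43 measured clock genes 22 were above 0 at 0 dpa (median 0.03). For per3, clocka and rorcb the wild-type library of batch 3 was below the other 3 uninjured libraries, with per3 on the common scale at 23.8 CPM in LEN deletion fins, 7.65 CPM in wild-type fins of batch 3 and 84.2 and 111 CPM in those of batch 1. Fish were kept in a light cycle, and the labels used here give no hour of collection, so its part was not tested. No clock gene of 44 was called over both times (3 unadjusted).

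Of the 12 genes past 2-fold at 2 dpa only, none was called by the genotype-by-time test or at 2 dpa with the replicated spread. The higher ones included mxb, an antiviral Mx gene, with 42.6 CPM in LEN deletion fins and 19.2 CPM in wild-type fins at 2 dpa, beside 23.3 CPM in LEN deletion fins and 23.7 CPM in wild-type fins at 0 dpa, gsta.2 (log2 ratio 1.27) and myo7aa (1.12). The lower ones included sox19a (-2.23), the immediate-early gene fosab with 21.9 CPM in LEN deletion fins and 69 CPM in wild-type fins (-1.66), foxo1b (-1.38), the flow-responsive klf2a (-1.20), eef1a1a (-1.08) and rhobtb2a (-1.04). At 2 dpa edgeR with the replicated spread called 4 of 12586 genes (0.0318%), with lepb and gstm.2 lower (0.0159%) and si:ch211-127b11.1 and si:dkey-13e3.1 higher (0.0159%), and 423 at an unadjusted p under 0.05. lepb is thus the only gene that was called at 2 dpa without being past 2-fold at 0 dpa as well. In the opposite class, adcy7 had 9.38 CPM in LEN deletion fins and 4.42 CPM in wild-type fins at 0 dpa, and 1.32 CPM in LEN deletion fins and 4.35 CPM in wild-type fins at 2 dpa, and hif1al2 had ratios of 1.00 and -1.12 (genotype-by-time adjusted p = 0.0729 and 0.09). The third was si:dkey-61p9.7 (-2.09 and 1.49, adjusted p = 0.714).

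Markers of other tissues that a fin clip can hold gave no called gene over both times in edgeR. These were erythrocytes (0 of 22 called, 0 at an unadjusted p under 0.05), muscle (0 of 29, 4), pigment cells (0 of 33, 8), nerve and glia (0 of 32, 3), vessels (0 of 33, 1) and osteoclasts (0 of 14, 3). DESeq2 called 1 pigment cell gene. Pigment cell genes had a median log2 ratio of 0.35 at 0 dpa and 0.12 at 2 dpa (SD between replicates 0.348). The other 5 lists had medians between -0.12 and 0.25 at either time. Summed muscle marker levels at 0 and 2 dpa were 802 and 521 CPM in LEN deletion fins and 879 and 501 CPM in wild-type fins. The epidermal keratin gene krt5 was the most abundant gene of all 4 libraries, at 5.77 to 7.95% of counts. Over the 21 lists with no called gene, 72 of 773 genes had an unadjusted p under 0.05 (9.31%), against 7.62% of all tested genes.

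**Figure D5:**
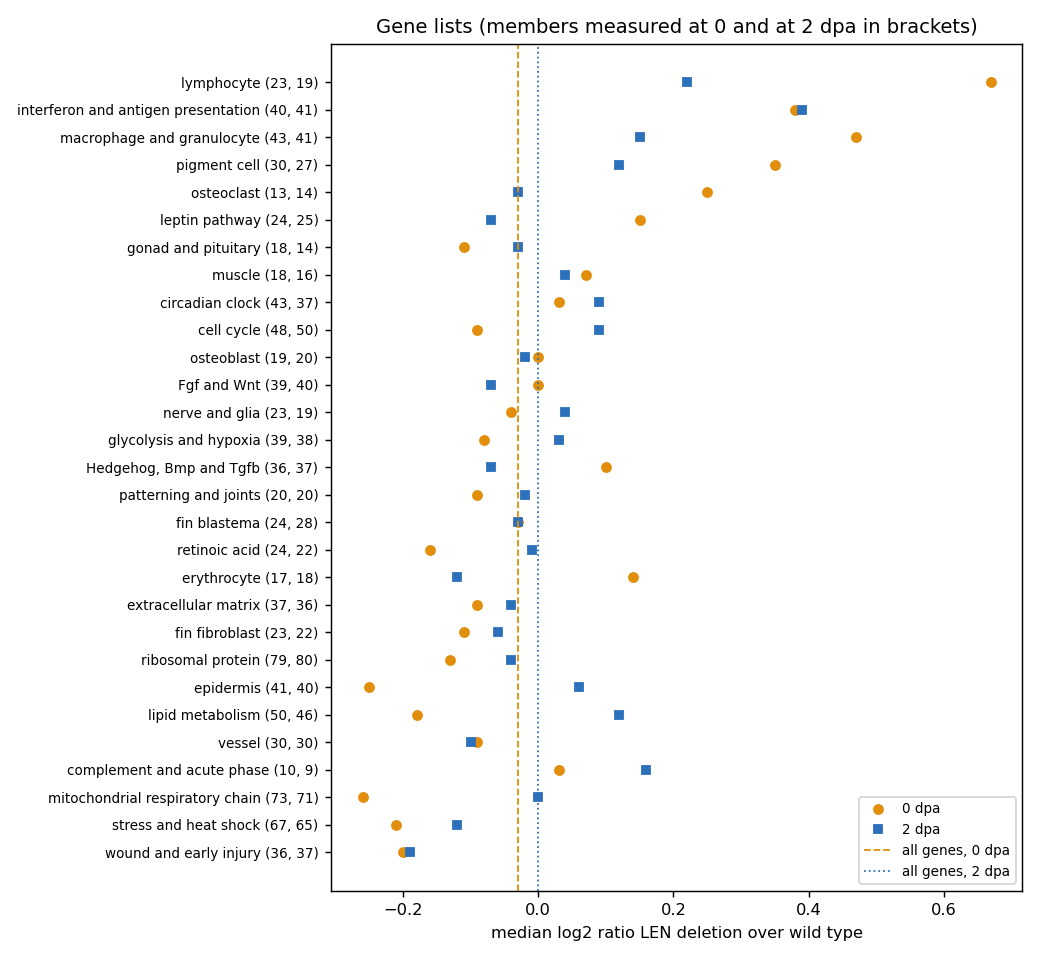
Median log2 ratio of LEN deletion over wild type in each of 29 gene lists at 0 dpa (orange circles) and 2 dpa (blue squares), ordered by the list's median difference over both times; the numbers in brackets count the members measured at each time, and the dashed and dotted lines mark the medians of all genes. Interferon and antigen presentation genes lie at 0.38 and 0.39 at 0 and 2 dpa, while lymphocyte genes lie at 0.67 and 0.22.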

How the data were processed

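Gene counts were those the authors deposited, 1 table per RNA library, as whole-number counts per gene symbol. Per the submitters' processing notes, Trim Galore 0.6.4, TopHat2 2.1.1 and HTSeq 1.6.1 were used with the danRer10 build, and a stranded mRNA kit was used per the labels. Which annotation and strand setting the counting used is not given in the sources used here. Overlapping genes and near-identical copies are therefore uncertain. Rows that name no gene were left out of totals and tests; reads on no annotated gene came to 32.6 to 39% of the 4 libraries. The 18 ATAC samples were not analysed here.

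The 4 libraries were fitted in edgeR 4.0.16 (R 4.3.3; quasi-likelihood F test, robust, TMM scaling, filterByExpr with a minimum count of 10) with time as a block and genotype as the tested term, two-sided, adjusted over all tested genes and called at 0.05. Ratios at a single time used a prior count of 2 and a minimum of 50 counts in the higher library, with no test. Differences at each time, their mean and the genotype-by-time difference were tested with 14 whole-fin libraries, in which the replicated libraries of batches 1 and 2 gave the spread and the lone libraries were assumed to vary like them. The labels call those replicates pools of fish, so their spread is that between pools. DESeq2 1.42.0 was an alternative. On simulated counts with 2-fold changes, 98% were recovered over both times, 71% at 0 dpa and 22% for genotype by time. False calls were 6.16, 5.52 and 5.56% of all calls, those of 4-fold changes included. Every simulated gene had the same dispersion, and only genes with a mean of at least 50 counts were changed. Changes over both times were the same at each time. Spread in the fins differs between genes, so these shares can overstate recovery. Intervals cover counting error only.

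Named genes were the 12 largest increases and decreases past 2-fold at both times, the 6 largest each way at 0 or 2 dpa only and the 4 of opposite direction with the largest gap, skipping clone identifiers, plus leptin, regeneration and lepb neighbour genes and up to 3 members of each of 29 gene lists. The members and lists were chosen with earlier results of these data known. Genes beyond this rule, among them the clone identifiers, igf1ra, erbb2, kita, ebp and the cholesterol list, were named after their values were seen. Of 14781 symbols, 14492 matched the GRCz12tu gene table, which gave current names and gene order only. Some genes that the rule names are not reported here.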

Additional observations from a re-analysis of the deposited data

Results flagged for a closer look

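The genotype difference itself differed between 0 and 2 dpa in 3 genes by edgeR's genotype-by-time test, with the spread taken from replicated wild-type fins. The difference at 2 dpa minus that at 0 dpa was 2.16 on the log2 scale for ebp (adjusted p = 0.029), with ratios of -1.41 at 0 dpa and 0.72 at 2 dpa. It was -2.14 for igf1ra (adjusted p = 0.029), with ratios of 1.75 and -0.38, and -2.41 for zgc:113278 (adjusted p = 0.0306), with ratios of 1.49 and -0.89. At 0 dpa the wild-type library of batch 3 lay outside the LEN deletion library and both batch 1 libraries for all 3 genes, and each rests on 1 library per genotype and time.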

How the results depend on the processing

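The 48 genes called over both times kept their sign under all 11 alternatives. These draw the genotype difference from the same 4 libraries, so the sign was largely set in advance. The number of genes called was 7 with library size only, 9 with upper-quartile factors, 163 with no expression filter and 75 without robust estimation. Of these, 7, 9, 48 and 48 were among the 48. It was 20 with the spread of the replicated whole fins, 9 with that of all 18 RNA libraries, 83 from 0 dpa alone and 4 from 2 dpa alone. Here 10, 7, 8 and 2 were among the 48. The 20 genes of the mean difference became 9 with all 18 libraries and 9 to 23 with 1 replicated library left out. The 3 genotype-by-time calls became 13 with DESeq2 size factors, 10 with library size only and 0 to 21 with 1 library left out. The 83 calls at 0 dpa became 31 with all 18 libraries and 56 to 133 with 1 left out; the 4 calls at 2 dpa became 4 to 6. The 20 genes past 2-fold at both times were 109 at 1.5-fold and 7 at 3-fold. Those at 0 dpa only were 161 and 21 at these folds, and 166 and 46 with minimums of 20 and 200 counts; those at 2 dpa only were 29 and 7, and 33 and 4. All genes past the fold at 0 dpa were 944 and 47, and 135 at 200 counts; at 2 dpa they were 350 and 22, and 138 and 43 at 20 and 200 counts. The cause was not tested. Library size only moved the share of higher genes among those past 2-fold at 0 dpa from 74.7 to 82.8%. The blastema list's median at 0 dpa, not called, went to 0.05 with library size only, against -0.03; no call changed direction. No paired analysis was possible because each compared group has 1 library and time is already the block. The limits are 1 library per genotype and time, 1 batch, and a spread borrowed from other batches.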
